A study of Mus musculus with 6 samples.

Results

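The genes described here are those of the endothelin pathway: the ligands Edn1 and Edn3, the receptors Ednra and Ednrb, and the endothelin-converting enzymes Ece1 and Ece2. They were taken by name from the deposited gene list, which gave 6 of 32285 genes. The measurements are single-cell RNA counts from C57BL/6 mouse embryos of stage E10.5, in which the region that forms the heart was cut out; the piece, per the labels, also carried ectoderm, endoderm and mesoderm outside the heart. All embryos were wild type and had normal-glycemic fathers. Their mothers had been pretreated either with vehicle and were normal-glycemic (3 samples), or with streptozotocin, a toxin of pancreatic beta cells used to induce diabetes, and were hyperglycemic (3 samples). The sample descriptions name a chromatin accessibility assay, but the titles, the library source and the kit name RNA, and the deposited values are molecule counts of genes. The deposited matrix joins 6 libraries, told apart only by the number at the end of each cell barcode, and the sources used here do not tie a number to a sample. The matrix was therefore treated as 1 sample: no vehicle against streptozotocin comparison was made, no p-value is given, and the libraries, named by their barcode number, show the spread. Treatment, embryo and dissection cannot be told apart as sources of a difference between libraries.

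Endothelins are short peptides held in shape by disulfide bonds. They are released from longer precursors, first by furin-like proprotein convertases and then by endothelin-converting enzymes, which are membrane-bound metalloproteases. Ednra is a G protein-coupled receptor that prefers Edn1 over Edn3, whereas Ednrb binds both about equally well. In the embryo, Edn1 from the pharyngeal epithelium and the mesoderm core of the arches acts on Ednra in neural crest cells, where it sets lower jaw identity through genes such as Dlx5, Dlx6 and Hand2, and the same pair is needed for the outflow tract and the arch arteries. Edn3 and Ednrb are known for their role in crest-derived precursors of melanocytes and of enteric neurons.

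The bases that encode the mature peptides are shown first, since these peptides are what the receptors bind. Both stretches were found in the GENCODE M21 coding sequences of mouse build GRCm38 from the spacing of the cysteines, both lie in exon 2 on the plus strand, and each is printed 5′ to 3′ with the bases that differ between the pair in capitals.
Edn1: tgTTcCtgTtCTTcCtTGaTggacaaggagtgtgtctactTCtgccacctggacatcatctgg
Edn3: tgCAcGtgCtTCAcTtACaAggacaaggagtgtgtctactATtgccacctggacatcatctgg
The Edn1 stretch is at chr13:42303649-42303711 and encodes residues 53 to 73 of a precursor of 202 residues, and the Edn3 stretch is at chr2:174761749-174761811 and encodes residues 97 to 117 of 214. Of 63 bases, 13 differed, nearly all of them in the first part of the peptide, and the 3′ end encodes the same residues in both. At the protein level 15 of 21 residues were the same and 6 differed. The genes themselves lie on chromosomes 13 (Edn1, 42301476 to 42307990, plus strand), 2 (Edn3, 174760619 to 174784042, plus strand), 8 (Ednra, 77663031 to 77724464, minus strand), 14 (Ednrb, 103814625 to 103844402, minus strand), 4 (Ece1, 137862237 to 137965229, plus strand) and 16 (Ece2, 20629828 to 20646485, plus strand). Edn1, Ednra and Ece1 each overlap a gene on the opposite strand that is also in the deposited list, and Ece2 overlaps a gene on its own strand that is not. How the counting treated strand and shared reads is not given in the sources used here, so molecules of the overlapping pairs that are both listed may be assigned to either.

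Of 53362 barcodes, 35962 had at least 2500 detected genes and at most 10% mitochondrial molecules and were kept as cells, between 4903 and 7136 per library, with a median depth per library of 30533 to 35634 unique molecular identifiers (UMIs, which count each captured RNA molecule once). Cells were put into classes by marker genes, and 15 classes of at least 50 cells were used. Exactly 1 gate was met by 20296 cells, 8 of them in classes too small to use. A further 13706 cells met no gate and 1960 met several. Every class carries the ending "-like", since its name rests on markers alone. Of the markers of each list, at least 6 reached a level of 10 CPM (counts per 1000000 UMIs) in their own class, and in the cardiomyocyte, endothelium, cushion, neuron and erythroid classes all markers were highest there. Fewer were in crest mesenchyme-like (4 of 9), smooth muscle-like (4 of 8) and second heart field-like cells (4 of 8). The classes were gated by these same markers, so these counts describe the gates and are no independent check of them. The libraries did not hold the same tissue in the same amounts: libraries 1 and 2 held 3 and 9 of the 1197 cells of a cluster led by Cxcl13, Ppfia2 and Nkx6-1, and 1 and 48 of the 967 cells of a cluster led by Foxd1, Lum and Cyp26a1 (2 of the 3 clusters with the highest Ednra among 43). Ednra levels of the second heart field, branchiomeric and smooth muscle classes, which hold some of their cells, are given with and without libraries 1 and 2. As a measure of free RNA, hemoglobin genes had a median of 54.1 to 81.2 CPM in the classes other than the erythroid-like one, where the median was 313850. The cardiomyocyte gene Myl7, at a median of 10840 CPM in cardiomyocyte-like cells, was at 640.0 in epicardium-like, 25.8 in second heart field-like and 22.9 in endoderm-like cells, and at 0 in the other classes.

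A level below is the gene's UMIs summed over the cells of a class, divided by all UMIs of those cells and scaled to 1000000 (CPM), with an exact Poisson 95% interval in brackets that covers counting error only. Because a molecule is counted once whatever its length, levels of different genes are on the same scale, apart from capture efficiency. Of the 6 genes, 5 reached 10 CPM in at least 1 class, against 11839 of all 32285 genes. Of these 5, 1, Ece1, was at least 2-fold higher in its highest class than in the next. Over all genes that reached that level, 1923 of 11839 (16.2%) had such a 2-fold lead. The median lead over the next class was 1.37-fold among the 5 endothelin genes and 1.15-fold among all genes. The number of classes at 10 CPM was 7 for Edn1, 3 for Edn3, 7 for Ednra, 5 for Ednrb and 13 for Ece1, of 15.

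**Figure D1:**
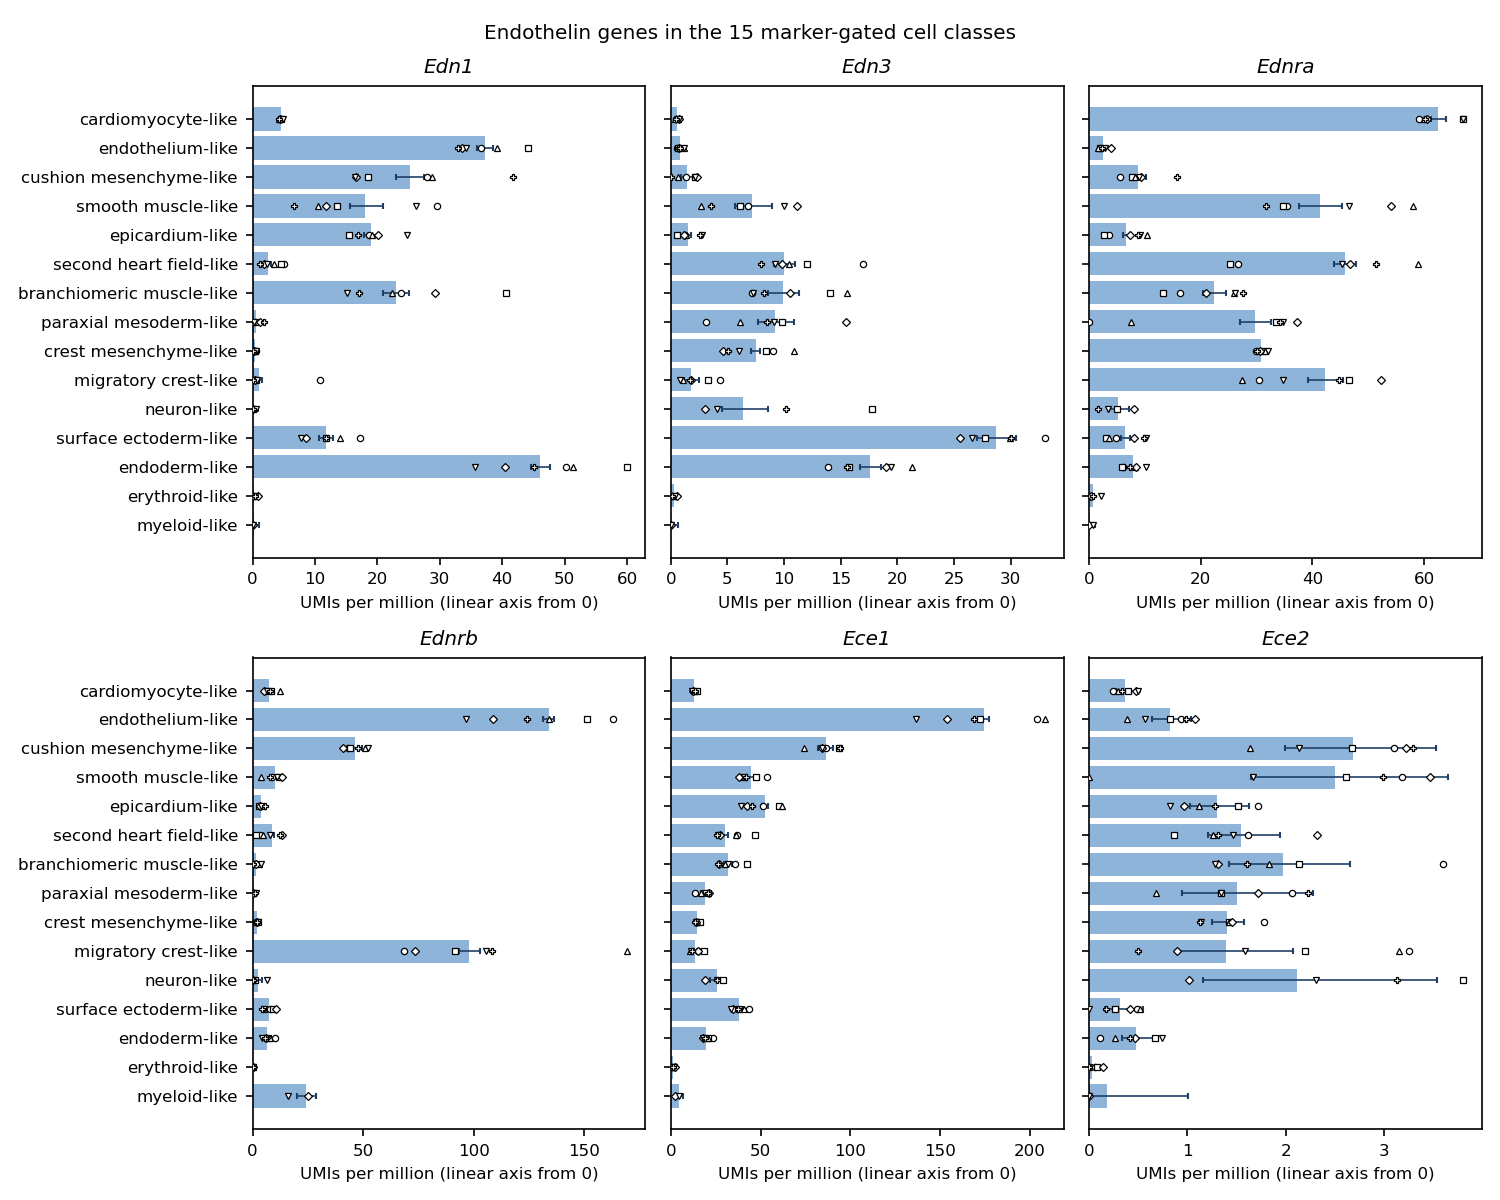
Levels of the 6 endothelin genes (CPM, linear axes that start at 0 and differ between panels) in the 15 marker-gated classes. Bars are the pooled level, lines the Poisson 95% interval, and symbols the 6 libraries (circle 1, square 2, triangle 3, diamond 4, inverted triangle 5, plus 6) where a class had at least 20 cells; Edn1 was highest in endoderm-like cells at 46.1, Edn3 in surface ectoderm-like cells at 28.7, Ednra in cardiomyocyte-like cells at 62.5, and Ednrb and Ece1 in endothelium-like cells at 134 and 174.

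Edn1, the ligand that patterns the arches and also a vasoconstrictor made by endothelium, was at 10 CPM or more in 7 classes, led by endoderm and endothelium, and was at 0.366 in crest mesenchyme. Its level was 46.1 CPM (44.6 to 47.7) in endoderm-like cells and 37.2 (36.0 to 38.5) in endothelium-like cells. Among libraries the endoderm level was lowest at 35.6, with a median of 47.7 and a highest value of 60.0, and the endothelium level ran from 32.9 through a median of 35.4 to 44.2. Endoderm was above endothelium within each of the 6 libraries, by 1.24-fold in all (1.18 to 1.30), although the ranges of the libraries overlapped. The size of that lead depended on the classes, though the ratio stayed above 1 in the alternatives, from 1.02 to 1.71. Requiring 1 more marker brought it to 1.02. With clusters in place of gates, the cushion-like class was the highest. The Igfbp7-led cluster, 54.9% cushion mesenchyme-like among its gated cells, also held 338 endothelium-like cells at 88.3, against 29.0 in its 412 cushion-like cells. The order of endoderm and endothelium turned with depth. In cells of under 15000 UMIs endothelium was at 70.3 and endoderm at 19.1. In those of 15000 to 30000 UMIs they were at 65.99 and 40.9, while endoderm was the higher in deeper cells. Cushion mesenchyme-like cells, which fill the cushions that become valves, were at 25.2 (23.0 to 27.5), branchiomeric muscle-like cells, the mesoderm core of the arches, at 22.9 (20.96 to 25.02), epicardium-like cells at 18.9 and smooth muscle-like cells at 18.1 (15.8 without libraries 1 and 2). Neighbours among these 4 overlapped in the ranges of their libraries. Surface ectoderm-like cells followed at 11.8, above the next class, cardiomyocyte-like cells at 4.52, in every library and with no overlap of the ranges. At the other end, crest mesenchyme-like cells had 74 Edn1 UMIs among 4604 cells, 0.366 CPM (0.287 to 0.460), an interval that overlaps the 0.266 (0.172 to 0.392) of erythroid-like cells, which should lack the gene. Both values rested on few cells: the 1370 erythroid-like cells of their main cluster were at 0.0663 and the other 47 at 5.31, while the main crest clusters were at 0.019 to 0.356 and the 465 crest mesenchyme-like cells outside them at 4.197 (3.16 to 5.46).

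Within the endoderm, Edn1 followed the pharyngeal pouch factor Pax9 and not Nkx2-1, the factor of thyroid and lung buds. Cells with Pax9 and without Nkx2-1 (1095 cells) were at 69.3 CPM, and the libraries ran from 61.0 through a median of 67.9 to 85.5. Cells with Nkx2-1 (492 cells) were at 5.50, with libraries from 2.88 through a median of 4.84 to 13.6. The groups did not overlap, and the ratio was 12.6-fold (9.99 to 16.1), higher in 6 of 6 libraries. Cells with neither marker (759 cells) lay between, with libraries from 18.2 to 40.2. The highest Edn1 of any of the 43 clusters was 129 CPM, in a cluster of 478 cells led by Aldh1a1, Pax9 and Ripply3, where every library was at 107 or more. Both splits used markers that also helped to gate endoderm, and they were set after the data had been seen.

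Within the endothelium, cells with at least 2 of the endocardial markers Nfatc1, Npr3, Cgnl1 and Gata4 (1608 cells) were at 40.8 CPM of Edn1, and the other endothelium-like cells (409 cells) at 19.7, a ratio of 2.08 (1.84 to 2.35) that was above 1 in 6 of 6 libraries. The clusters divided the endothelium differently. Endothelium-like cells of the cluster led by Igfbp7, Pdlim3 and Hapln1, where most cushion mesenchyme-like cells also lay, had 88.3 (83.4 to 93.4) CPM of Edn1. Those of the cluster led by Cldn5, Emcn and Sox17, genes of vascular endothelium, had 36.5 (34.4 to 38.6). The cluster led by Klhl4, Gpr182 and Adgrg6 also had the endocardial marker Npr3 among its leading genes. Its endothelium-like cells had 21.2 (19.8 to 22.7), below the Cldn5-led ones. The lead of the endocardial marker group was thus not shared by this cluster. The 3 intervals did not overlap, so Edn1 differed between cells that share the endothelial gate by more than counting error.

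Edn3, the ligand that crest-derived precursors of melanocytes and enteric neurons depend on, was highest in the epithelia among the classes. Its top class was surface ectoderm-like cells at 28.7 CPM (27.0 to 30.4), above the 11.8 of Edn1 there, and the libraries ran from 25.5 through a median of 28.9 to 33.0. Endoderm-like cells were next at 17.6 (16.7 to 18.5), with libraries from 13.9 through a median of 17.4 to 21.3. The ranges did not overlap, and surface ectoderm was 1.63-fold higher (1.505 to 1.766), in 6 of 6 libraries. Second heart field-like (10.0), branchiomeric muscle-like (9.88), paraxial mesoderm-like (9.16), crest mesenchyme-like (7.48), smooth muscle-like (7.15) and neuron-like cells (6.33) formed a plateau in which neighbours overlapped in their libraries. Endothelium-like cells, at 0.796, and cardiomyocyte-like cells, at 0.573, were low, though above the 0.255 (0.164 to 0.380) of erythroid-like cells, with cardiomyocytes higher in 6 of 6 libraries. As whole classes, the epithelia thus had the pair of ligands arranged in opposite ways: Edn1 was 0.255 times as high in surface ectoderm as in endoderm, lower in 6 of 6 libraries. This did not hold for all endoderm. Endoderm-like cells with Nkx2-1 were at 5.50 for Edn1 and 19.2 for Edn3, both below surface ectoderm. Of the clusters, the highest Edn3 level was 42.8, in 853 cells led by Galnt3, Foxi2 and Neurog2. Cells without a gate held 42.7% of the Edn3 UMIs and 27.1% of all UMIs, and were at 12.6 CPM (12.2 to 13.0). The Foxd1-led cluster, mostly without a gate, was at 17.9, near the endoderm level.

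Edn3 also differed within the crest. Crest mesenchyme-like cells without Hox genes, as in the first arch, were at 10.7 CPM (718 cells), and those with at least 2 of 5 Hox genes, as in the second and more posterior arches, at 5.86 (2449 cells), while cells with 1 such gene were left out. The first group was higher in 6 of 6 libraries, by 1.83-fold (1.58 to 2.11), with library values from 6.46 to 14.4 against 3.86 to 7.95, ranges that overlapped.

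Ednra, the receptor that transduces Edn1 in crest and smooth muscle, was broad, with its highest class outside the crest. Cardiomyocyte-like cells were at 62.5 CPM (61.2 to 63.8), and the libraries were narrow, from 59.1 through a median of 60.4 to 67.0. Second heart field-like cells, the mesoderm that adds cells to both poles of the heart, were at 45.8 (43.9 to 47.8), and their libraries were wide, from 25.3 through a median of 46.0 to 58.9. Cardiomyocytes were above second heart field in 6 of 6 libraries, by 1.36-fold (1.30 to 1.43), and the ranges met without overlapping. Migratory crest-like cells followed at 42.2 (39.2 to 45.4) and smooth muscle-like cells at 41.3 (37.6 to 45.3; 45.7 without libraries 1 and 2), neither separated from the second heart field beyond the spread of the libraries. Crest mesenchyme-like cells, the receiver of arch Edn1, were at 30.8 (30.05 to 31.58), with all libraries between 29.8 and 32.0. Ednra was low in endothelium-like cells, at 2.42, and in surface ectoderm-like cells, at 6.497, classes that held ligand.

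The cardiomyocyte level was an average over unlike cells. Cardiomyocyte-like cells of the cluster led by Myh6, Myl1 and Cox6a2, with Nppa and Tnni3 among its leading genes, were at 100.1 CPM (97.1 to 103). Those of the cluster led by Myl2, Pln and Myh7, genes of ventricular muscle, were at 51.8 (50.04 to 53.66). Those of the cluster led by Abra, Tnnt1 and Myh7 were at 48.5 (45.3 to 51.8), and those of the larger of 2 clusters led by Vsnl1 and Shox2, the latter a gene of the sinus node region, at 36.5 (33.4 to 40.0). The smaller one (152 cells at a median of 13034 UMIs) was at 4.86 (2.43 to 8.70). Over whole clusters, the Myh6-led one ran from 89.8 to 109 among the libraries and the Myl2-led one from 48.5 to 56.4, with no overlap.

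The spread of the second heart field came with its makeup. Library 1 was at 26.6 and library 2 at 25.3, and the other libraries were at 58.9, 46.7, 45.3 and 51.3. The cells of this class that lay in the Cxcl13-led cluster were at 83.8 (78.5 to 89.3), and those in the cluster led by Col19a1 at 40.6 (37.5 to 43.9). Of the Cxcl13-led cells, libraries 1 and 2 gave 2 and 3, and the others 57, 79, 136 and 79. Without libraries 1 and 2 the class was at 49.5, and the lead of cardiomyocytes was 1.26-fold. The part of this makeup in the library spread was not tested. Paraxial mesoderm-like cells, at 29.7 in all, also differed between libraries. Ednra was at 0 in library 1 (23 cells) and 7.45 in library 3 (29 cells), against 33.5 to 37.3 in the others. Libraries 1 and 3 gave none of the 129 cells of this class in the cluster led by C1qtnf7 and Meox2, which were at 43.8. They gave 23 and 28 cells to the cluster led by Pax3 and Lbx1, where the class was at 10.6 (8.54 to 13.1) over all libraries. The 73 cells in neither cluster, with 0 and 1 from libraries 1 and 3, were at 77.3. Library 1 was thus also below the level of the cluster that held its cells. The part of makeup in this spread was not tested.

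Many Ednra molecules lay in cells without a gate, which held 34.1% of them and 27.1% of all UMIs. The cluster with the highest level of all, led by Foxd1, Lum and Cyp26a1, was at 124 CPM, and in the 5 libraries with enough cells it ran from 96.0 through a median of 126 to 136. It met a gate in only 13.4% of its cells, and its markers gave it no class, so it was given no name. The Cxcl13-led cluster was at 94.7, with 4 libraries from 72.8 to 147.

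**Figure D2:**
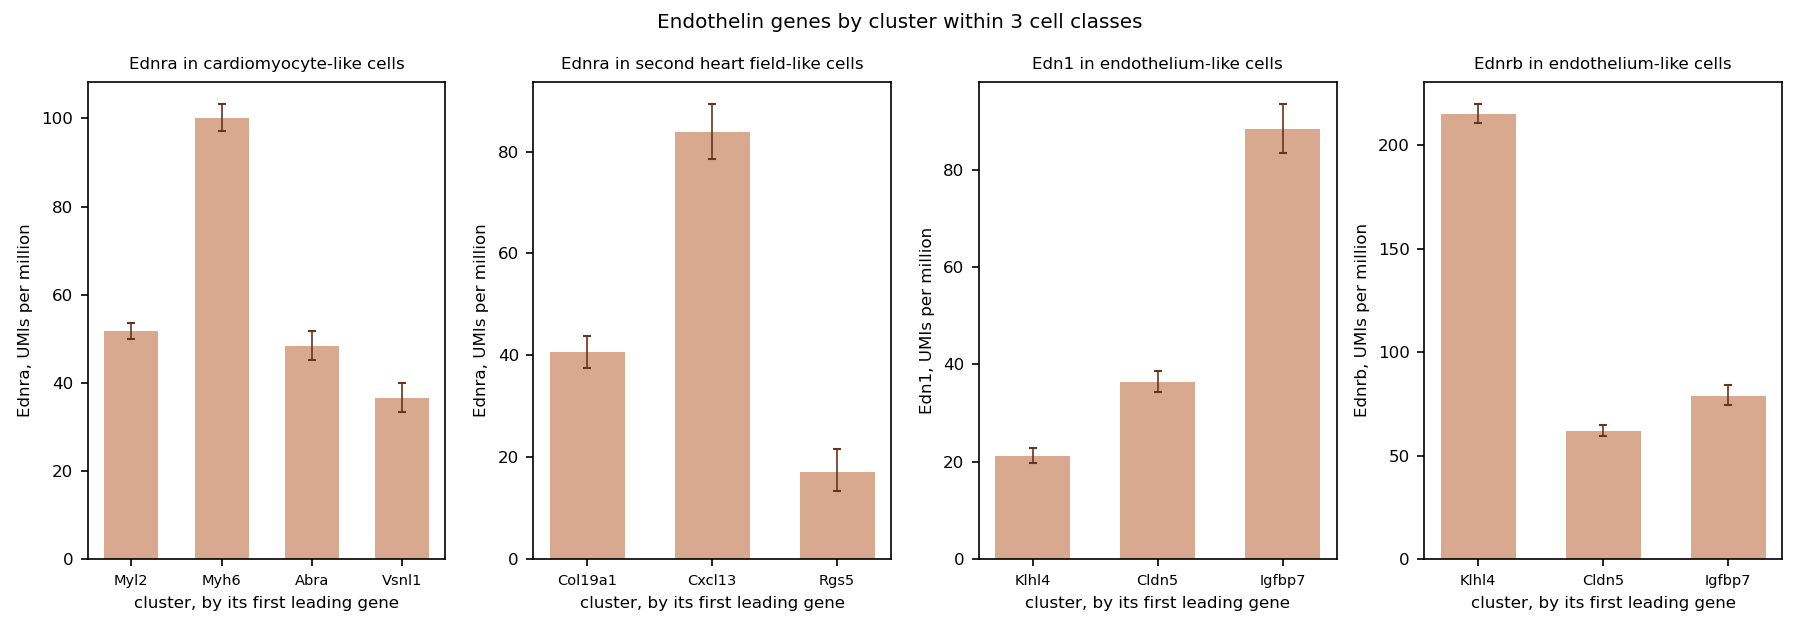
Levels (CPM, linear axes from 0) in the cells of 3 marker-gated classes, split by unsupervised cluster; each cluster shown is named by its first leading gene, Vsnl1 marks the larger of 2 clusters led by it, 1 second heart field cluster is not shown, and lines are Poisson 95% intervals. Ednra reached 100.1 in the Myh6-led cardiomyocyte-like cells and 83.8 in the Cxcl13-led second heart field-like cells, Edn1 was highest at 88.3 in the Igfbp7-led endothelium-like cells, and Ednrb at 215 in the Klhl4-led ones.

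In the crest, Ednra was lower where the distal marker Hand2 was on. Among Hox-positive crest mesenchyme-like cells, those with Hand2 (957 cells) were at 23.8 CPM, with libraries from 19.3 through a median of 22.9 to 28.1. Those with Dlx5 or Dlx6 but no Hand2, as in the intermediate arch (824 cells), were at 38.7, with libraries from 32.0 through 37.4 to 51.3. Those with none of the 3 (668 cells) were at 42.4, with libraries from 37.3 through 42.1 to 45.2. The Hand2-positive cells lay below both other groups in all 6 libraries and did not overlap them, with ratios of 0.617 (0.571 to 0.665) and 0.562 (0.519 to 0.609), whereas the other groups overlapped. In Hox-negative crest the same contrast was smaller, 20.6 against 26.7, a ratio of 0.772 (0.644 to 0.927), and Hand2-positive cells were lower in 3 of the 5 libraries with enough cells. Hox-negative crest as a whole was at 22.9 and Hox-positive crest at 33.3, a ratio of 0.686 (0.627 to 0.750), lower in 6 of 6 libraries. Hand2, Dlx5 and Dlx6 are themselves known targets of Ednra signalling, and the domains are defined by them, so their own levels are no result here.

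**Figure D3:**
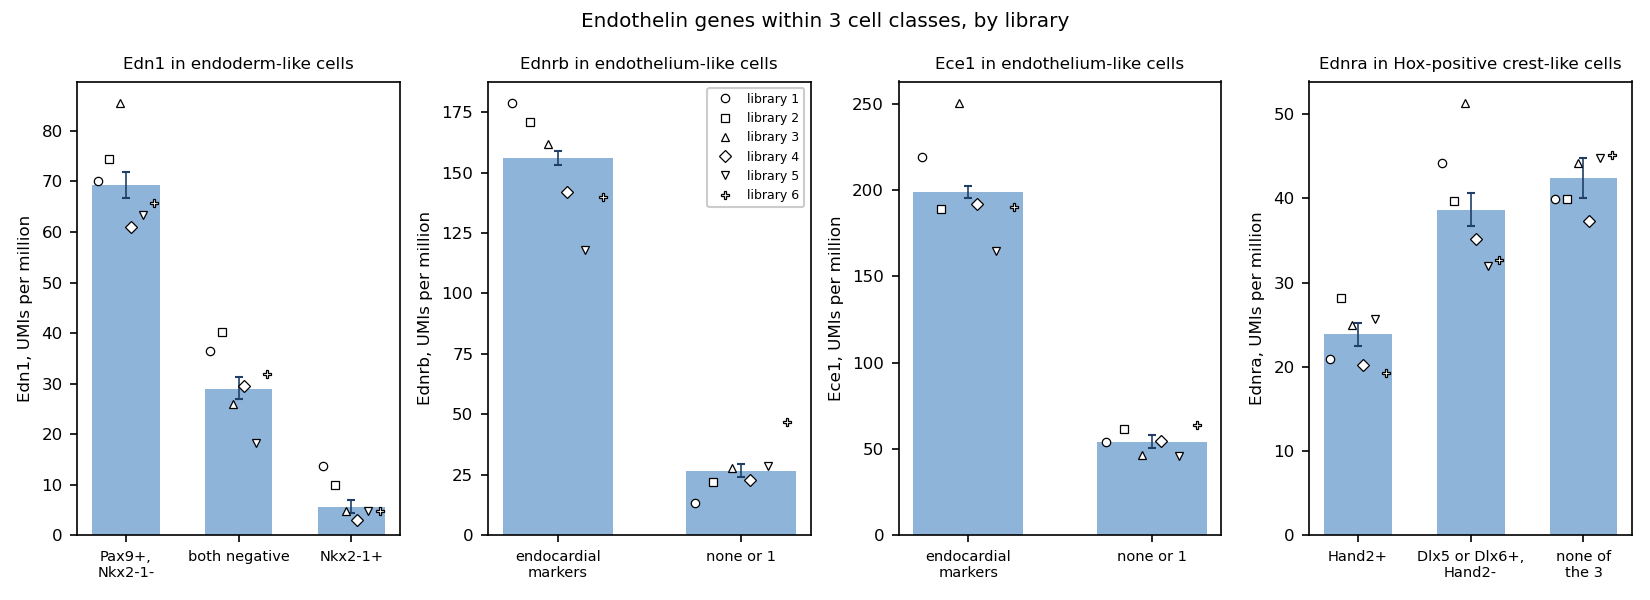
Levels (CPM, linear axes from 0) of Edn1 in endoderm-like cells by Pax9 and Nkx2-1, of Ednrb and Ece1 in endothelium-like cells with and without endocardial markers, and of Ednra in Hox-positive crest mesenchyme-like cells by Hand2, Dlx5 and Dlx6. Bars are pooled levels, lines Poisson 95% intervals and symbols the 6 libraries; the Pax9 group at 69.3 against 5.50, the endocardial group at 156 against 26.7 for Ednrb and 199 against 54.0 for Ece1, and the Hand2 group at 23.8 against 38.7 and 42.4 are apart in all libraries.

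Ednrb, the receptor that endothelium uses to clear endothelin and that melanocyte and enteric precursors need, was held by few classes. Endothelium-like cells were at 134 CPM (132 to 136), with libraries from 96.8 through a median of 129 to 163, and held 56.4% of all Ednrb UMIs in 5.61% of the cells. Migratory crest-like cells, gated by Sox10 or Foxd3 with other early crest and glial genes, were at 97.9 (93.3 to 103), with libraries from 68.4 (20 cells) through 98.5 to 169 (22 cells). The classes overlapped: the endothelium was higher in 4 of 6 libraries, lower in libraries 3 and 5, and its lead was 1.37-fold (1.30 to 1.44) in all and 1.12-fold without libraries 1 and 2. Cells with endocardial markers were 470 of 525 endothelium-like cells in library 1 and 360 of 426 in library 2. In libraries 3 to 6 they were 135 of 183, 165 of 238, 256 of 360 and 222 of 285. The part of this makeup in the library spread was not tested. Cushion mesenchyme-like cells were at 46.3 (43.3 to 49.5) and myeloid-like cells at 24.2 (20.3 to 28.7, from 85 cells). Crest mesenchyme-like cells, at 1.89 (1.71 to 2.09), were far below their migratory counterpart, and erythroid-like cells were at 0.106.

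Inside the endothelium, Ednrb went with the endocardial markers. Cells with them were at 156 CPM, with libraries from 118 through 152 to 179. The other endothelium-like cells were at 26.7, with libraries from 13.4 through 25.2 to 46.8. The groups did not overlap and the ratio was 5.85 (5.29 to 6.48), above 1 in 6 of 6 libraries. By cluster, the Klhl4-led endothelium-like cells were highest at 215 (211 to 220), the Igfbp7-led ones were at 79.0 (74.4 to 83.9) and the Cldn5-led ones at 61.9 (59.3 to 64.7). The cluster with the most Ednrb thus had the least Edn1 of the 3, and this is a description over 3 clusters.

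The cushion value needs the endothelial markers beside it. In cushion mesenchyme-like cells 7 of 8 endothelium markers were above 0, 4 reached 10 CPM, and their summed level was 201 CPM, with libraries from 163 to 227, against 2211 in endothelium-like cells. The cushion cells of the Igfbp7-led cluster, 74.2% of the class, were at 57.2 (53.4 to 61.3) for Ednrb, while the 60 cushion cells of the cluster led by Stmn4 and Rgs5 were at 5.60 (2.56 to 10.6). The part of endothelial molecules in the cushion level was not tested. In migratory crest-like cells the endothelium list summed to 30.9, and the 353 of them in the cluster led by Foxd3 were at 114 (108 to 119) for Ednrb, while the 50 outside it were at 12.9.

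Within Hox-positive crest mesenchyme, low Ednrb levels differed by domain. Hox-positive Hand2-positive cells were at 3.996 (3.46 to 4.59) and the Hox-positive cells with Dlx5 or Dlx6 but no Hand2 at 0.960, a ratio of 4.16 (2.94 to 6.03), above 1 in 6 of 6 libraries. In Hox-negative crest the same groups were at 1.26 and 0.939, a ratio of 1.34 (0.538 to 3.76) that was not resolved. In the Hox-positive cells Ednra was lower in the first of these groups than in the second. Cells with none of the 3 markers were at 2.05 for Ednrb. The summed level of the migratory crest markers in the whole crest mesenchyme class was 33.8 against 821 in migratory crest-like cells.

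The balance of the receptors differed between classes. Endothelium-like cells had 55.3 Ednrb UMIs for each Ednra UMI, while crest mesenchyme-like cells had 16.3 Ednra UMIs for each Ednrb UMI and paraxial mesoderm-like cells 36.3. The receptors were near each other in surface ectoderm-like cells (248 Ednra and 278 Ednrb UMIs), endoderm-like cells (616 and 501) and epicardium-like cells (398 and 233). In each of these classes this was an average over unlike cells. Surface ectoderm-like cells of the Wnt6-led cluster were at 6.57 for Ednra and 9.16 for Ednrb, and those of the Galnt3-led cluster at 7.22 and 1.28. Epicardium-like cells of the Upk1b-led cluster were at 1.42 for Ednra and 4.15 for Ednrb, and the 112 outside the main clusters at 54.3 and 2.25. Endoderm-like cells of the Rarres1-led cluster were at 4.87 and 0.273, and those of the cluster led by 9030622O22Rik and Afp at 11.5 and 14.8. Migratory crest-like cells held both: 54.8% of them had a UMI of each receptor, 13.4% of Ednra alone and 28.3% of Ednrb alone. In cardiomyocyte-like cells 13.5% had both. In endothelium-like cells both were found together in 4.66%, and 60.9% had Ednrb alone. With each cell thinned to 5000 UMIs, the share with Ednrb was 34.9% (Clopper-Pearson 95% interval 32.8 to 37.0) in endothelium-like cells and 39.0% (34.2 to 43.9) in migratory crest-like cells, against 65.6% and 83.1% before thinning. The same share in erythroid-like cells was 0.0706%, at a median depth before thinning of 64432 UMIs against 38467 in endothelium. Ednra was found in 24.4% (23.0 to 26.0) of thinned cardiomyocyte-like cells and 13.3% (12.3 to 14.3) of thinned crest mesenchyme-like cells, against 0.282% in erythroid-like cells.

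**Figure D4:**
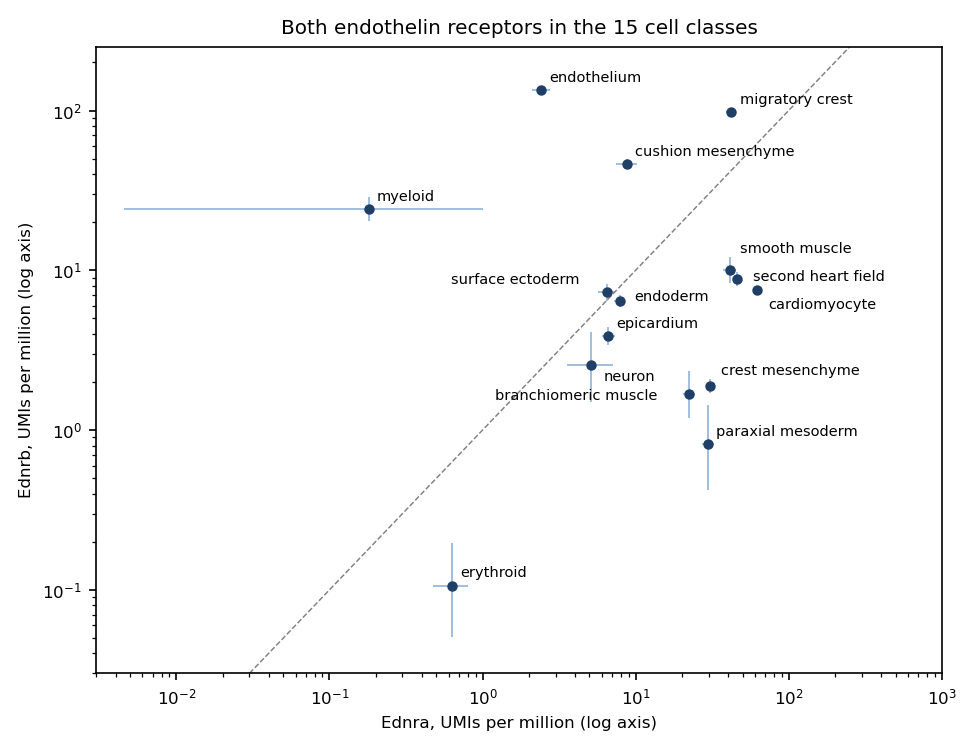
Ednra against Ednrb level (CPM, log axes) in the 15 classes, with Poisson 95% intervals; the dashed line marks equal levels. Endothelium-like cells sit at 2.42 and 134, migratory crest-like cells at 42.2 and 97.9, and crest mesenchyme-like cells at 30.8 and 1.89.

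Arch core cells held Edn1 beside Ednra at the level of the class: branchiomeric muscle-like cells were at 22.9 for Edn1 and 22.4 for Ednra, and at 20.02 and 25.5 without libraries 1 and 2. The clusters parted them: the cells of this class in the cluster led by Lhx2, Cpne4 and Shisa6 were at 31.8 for Edn1 and 12.1 for Ednra, and those in the Cxcl13-led cluster at 1.37 and 56.3. Another cluster led by Lhx2, with Rxrg (483 cells at a median of 11685 UMIs, 6.21% gated), was at 7.38 for Edn1 and 3.85 for Ednra. Holding both genes was not particular to the arch core: smooth muscle-like cells were at 18.1 for Edn1 and 41.3 for Ednra.

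Ece1, the enzyme that cuts big endothelin-1 to its active form, was highest in the endothelium, as Ednrb was, but was present in nearly every other class too. It was at 174 CPM (171 to 177) in endothelium-like cells, with libraries from 137 through 170 to 208, and at 86.3 (82.2 to 90.6) in cushion mesenchyme-like cells, with libraries from 74.0 through 85.4 to 93.9. The ranges did not overlap. The lead was 2.02-fold (1.92 to 2.12), in 6 of 6 libraries, but it was under 2-fold without library 1 (1.91) or library 3 (1.93), without libraries 1 and 2 together (1.92), with the median of the libraries (1.996), with 1 more marker required (1.85), and with clusters in place of gates (1.15). In the Igfbp7-led cluster, endothelium-like cells were at 207 and cushion mesenchyme-like cells at 90.9. Epicardium-like cells were at 52.3 (50.5 to 54.2), smooth muscle-like at 44.6 (40.48 without libraries 1 and 2), surface ectoderm-like at 38.0 and branchiomeric muscle-like at 31.8. The lowest classes were erythroid-like at 1.23 and myeloid-like at 4.51. In crest mesenchyme-like cells Ece1 was at 14.6 (14.0 to 15.1), and in migratory crest-like cells at 13.4 (11.7 to 15.3), which overlapped.

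Ece1 also differed inside the classes in which Edn1 and Ednrb did. It was at 199 CPM in endothelium-like cells with endocardial markers, with libraries from 165 to 250, and at 54.0 in those without, with libraries from 45.9 to 63.6, a ratio of 3.68 (3.43 to 3.96) in 6 of 6 libraries. In endoderm-like cells it was at 25.1 with Pax9 and 13.0 with Nkx2-1, a ratio of 1.94 (1.65 to 2.29), higher with Pax9 in 6 of 6 libraries. Surface ectoderm was above endoderm by 1.93-fold (1.797 to 2.078), again in 6 of 6, so that, as whole classes, the epithelium with less Edn1 had more of the enzyme.

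Ece2, a related enzyme with an acidic optimum, was scarce. Its highest class was cushion mesenchyme-like cells at 2.68 CPM (1.997 to 3.526), from 51 UMIs, and no class reached 10. The next class, smooth muscle-like cells, was at 2.51 (1.65 to 3.65), and 8 of 15 classes were within 2-fold of the highest, so the order is not resolved at this depth. Surface ectoderm-like cells, at 0.314 (0.162 to 0.549), and cardiomyocyte-like cells, at 0.371 (0.278 to 0.485), lay below the cushion value. Endothelium-like cells had 0.819 CPM of Ece2 and 174 of Ece1.

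The other genes of the pathway were read from lists that were written with earlier results of these data known. Counts at 10 CPM in these lists stand beside the 11839 of 32285 over all genes. Of 7 further genes for ligands and peptide processing, 5 reached 10 CPM and 4 had a 2-fold lead in their highest class, a lead that 16.2% of all genes at that level had. Furin, a convertase that makes the first cut, was at 77.3 in cushion mesenchyme-like cells and 35.0 in endothelium-like cells. Pcsk5, a related convertase, was at 383 in epicardium-like cells and 133 in cushion mesenchyme-like cells. Mme, or neprilysin, a peptidase that degrades endothelins, was at 76.9 in smooth muscle-like cells and 32.5 in cushion mesenchyme-like cells. Pcsk6, another convertase, was at 22.8 in branchiomeric muscle-like cells and 14.6 in surface ectoderm-like cells. The other gene at that level, Kel, was highest in erythroid-like cells.

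The G proteins and phospholipases that the receptors use all reached 10 CPM (7 of 7), and 0 had a 2-fold lead, against 16.2% of all genes at that level. Their median lead was 1.10-fold, against 1.15-fold for all genes. Gnaq was at 158 in migratory crest-like cells and at 112 in crest mesenchyme-like cells, and Plcb1 was at 188 in epicardium-like cells and 180 in second heart field-like cells. Within Hox-positive crest, Plcb1 was at 27.3 with Hand2, 51.3 with Dlx5 or Dlx6 alone and 93.8 with neither. Plcb4 was at 28.03, 31.5 and 47.9 in these groups, while the other 5 genes, such as Gnaq (116, 107 and 132) and Gna11 (74.5, 78.02 and 78.4), differed less.

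Of 9 known arch targets of Edn1 and Ednra, 7 reached the level and 5 had a 2-fold lead, against 16.2% of all genes at that level. The 5 were Dlx3, Dlx5, Dlx6 and Gsc, highest in crest mesenchyme-like cells, and Hand1, highest in smooth muscle-like cells at 269. Hand2 was highest in smooth muscle-like cells at 172 and Mef2c in myeloid-like cells at 533, while Dlx4, at 5.96 in crest mesenchyme-like cells, and Nkx3-2, at 0.65 in smooth muscle-like cells, did not reach 10 CPM. Gsc, a homeobox gene of the lower jaw that no gate used, was at 70.4 in Hox-negative Hand2-positive crest, 25.8 with Dlx5 or Dlx6 alone and 9.93 with neither, while Ednra was at 20.6, 26.7 and 25.6 in these cells. The group with neither was 93 cells at a median of 17988 UMIs, and only library 1 held enough of them for a value of its own. Other targets were ordered differently there: Dlx3 was at 21.4, 39.3 and 17.2, Dlx4 at 6.21, 16.6 and 5.23, and Mef2c at 17.1, 15.03 and 26.1. Pou3f3, an upper jaw gene that Edn1 signalling opposes, was at 0.132, 9.66 and 47.0. Of the 6 genes of Ednrb-dependent crest derivatives, 6 reached the level and 4 had a 2-fold lead (16.2% of all genes at that level), but only Sox10, at 168, and Foxd3, at 133, were highest in migratory crest-like cells, and both had been used to gate them. Ret, a receptor of enteric precursors, was at 38.7 in migratory crest-like cells and 45.6 in neuron-like cells. Mitf, the melanocyte factor, was highest in cardiomyocyte-like cells at 90.5, with 26.8 in migratory crest-like cells.

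The genes whose levels ran most like each member over the 15 classes were named by the Pearson correlation of log2(CPM + 1), among 11710 candidates, as a description of classes that share libraries and depth. For Ednra the nearest was 4933431K23Rik (r = 0.96), the gene that overlaps it on the opposite strand, followed by Lama2 (0.91) and Aff2 (0.89). Its level in cardiomyocyte-like cells was 13.1, against 62.5 for Ednra. For Ece1 they were Rps6ka2 (0.96), Adarb1 (0.94) and Sorbs3 (0.93), for Edn3 Igsf9 (0.92), Inava (0.92) and Rab11fip4 (0.92), for Ednrb Slc7a7 (0.90), Wdfy1 (0.88) and Map3k11 (0.87), and for Edn1 Iqsec2 (0.86), Plcl1 (0.84) and Igf1 (0.83). No member was among the nearest genes of another.

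Depth moved with some of these levels. Crest mesenchyme-like cells with under 15000 UMIs (142 cells) had 4.14 CPM of Ednra and 1.77 of Ece1, against 24.95 and 13.45 in cells of 15000 to 30000 UMIs, and 32.4 and 14.5 at 45000 or more. Edn3 moved less, from 5.32 to 7.03. The shallow cells also had a median of 0.0888% mitochondrial UMIs against 2.06% in the deepest, and 29.9% ribosomal protein UMIs against 22.2%, and libraries 1 to 6 gave 39, 44, 34, 6, 6 and 13 of them. The class level of Ednra was 31.0 without them. In endothelium-like cells Edn1 ran the other way, from 70.3 in cells with under 15000 UMIs to 65.99, 38.17 and 29.0 in deeper ones, while Ednrb was at 46.0 in the first and at 135, 135 and 135 in the others. In endoderm-like cells Edn1 was at 19.1 under 15000 UMIs and at 40.9, 45.3 and 54.6 in deeper cells. The part of cell quality in these levels was not tested.

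**Figure D5:**
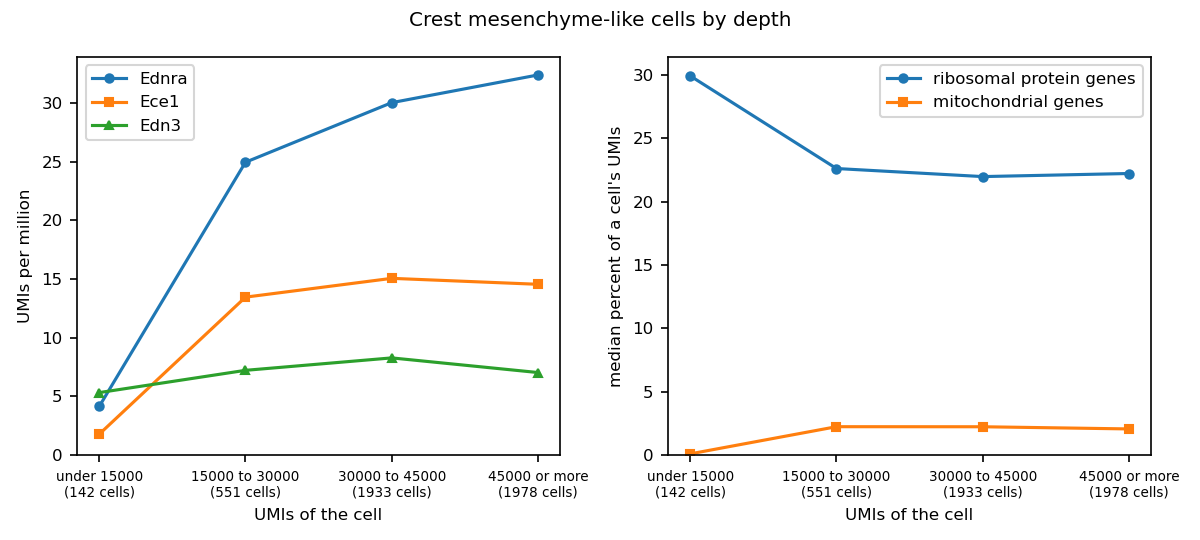
Crest mesenchyme-like cells in 4 ranges of UMIs per cell: levels of Ednra, Ece1 and Edn3 (left, CPM, axis from 0) and the median percent of a cell's UMIs from ribosomal protein and mitochondrial genes (right, axis from 0). The 142 cells with under 15000 UMIs stand apart, with Ednra at 4.14 and mitochondrial genes at 0.0888%.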

How the data were processed

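The authors deposited 1 matrix of counts (whole-number UMIs per gene and cell barcode) that joins all samples; per the file headers it came from Cell Ranger 5.0.0, and the submitters' processing notes also name CASAVA 1.8, Seurat 4 and the build mm10, without roles. Nothing was normalized in the deposited counts. No source used here states which filters the authors applied. Cells with at least 2500 genes and at most 10% mitochondrial UMIs were kept, as in the rule by which these genes were set, and 17029 and 371 barcodes failed each limit in turn. A marker counted as on at 2 or more UMIs. A class needed a set number of its markers, and cells that met several classes after fixed precedence rules were left out; the numbers needed, the precedence and the splits within classes were chosen after the data had been seen. Summed counts gave levels with exact Poisson 95% intervals, ratios with binomial ones and shares with Clopper-Pearson ones, all covering counting error only. A count of 3 was the floor for a gene at 0. Clusters (Scanpy 1.11.5, 3000 variable genes without the 6 members, 30 components, 20 neighbours, resolution 1.5) were an alternative and gave divisions of classes. Doublets were not removed beyond the leaving out of cells in several classes; removal by doublet score (0.8% per 1000 cells) was an alternative. Of the kept cells, 283 shared a barcode sequence with a kept cell of another library, and 2890 with any barcode of one. Arithmetic used NumPy 2.4.6 and SciPy 1.17.1 under Python 3.11.15, and class ranks and ratios were tested on simulated data. Genes named are the 6 members, the genes of lists of the pathway and, per member at 10 CPM or more, the 3 most alike genes. The members, the marker lists and the pathway lists were chosen with earlier results of these data known. Samples were grouped from the labels as vehicle or streptozotocin, but a test between them was not run. The values of 1 cluster are not reported here.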

Additional observations from a re-analysis of the deposited data

How the results depend on the processing

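Each ratio of the highest class to the next was recomputed under 8 alternatives and with each library left out, and under 2 alternatives added after the data had been seen. The count of genes at 10 CPM stayed at 5 in all of them, and the highest class was the same for at least 4 of the 6 genes. Requiring 1 more marker gave 1.02 for Edn1 and 1.85 for Ece1. Classes from clusters gave 1.71 for Edn1 (with the cushion-like class highest), 2.07 for Edn3, 1.45 for Ednra and 1.15 for Ece1, and no value for Ece2, since no cluster was then smooth muscle-like. The Igfbp7-led cluster, mostly cushion mesenchyme-like among its gated cells, also held 338 endothelium-like cells. Thinning to 5000 UMIs gave 1.05 for Edn1, 1.26 for Ednra, 1.12 for Ednrb, 2.19 for Ece1 and, reversed, 0.589 for Ece2. Removing barcodes shared between libraries gave 1.14 for Edn1 and, reversed, 0.970 for Ece2. The median of the libraries gave 1.35 for Edn1. Without libraries 1 and 2 the ratios were 1.501 for Edn3, 1.26 for Ednra and 1.12 for Ednrb, and leaving out cells under 15000 UMIs moved no ratio beyond its counting interval. The cause of these moves was not tested. With each library left out in turn, the ratios ran from 1.22 to 1.29 for Edn1, 1.54 to 1.70 for Edn3, 1.29 to 1.44 for Ednra, 1.249 to 1.501 for Ednrb, 1.91 to 2.10 for Ece1 and 1.01 to 1.11 for Ece2. No paired analysis was possible because the barcodes carry a library number that the sources used here do not tie to the replicate numbers of the labels; for the same reason the alternatives of the treatment comparison (DESeq2, no filter, each replicate left out) were not run. The order of Ece2 in its highest classes (cushion mesenchyme-like, smooth muscle-like, neuron-like and branchiomeric muscle-like cells) rests on 14 to 51 UMIs each. Of the kept cells, 38.1% met no gate and a further 5.45% met several, and neither group had a class.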

Other observations

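Kel, the Kell blood group protein and a relative of the converting enzymes that cleaves big endothelin-3, was at 104.99 CPM in erythroid-like cells, from 9872 UMIs, and at 0.218 in the next class, endoderm-like cells. Erythroid-like cells had the lowest levels of Edn3, Ednra, Ednrb and Ece1 among the classes apart from myeloid-like cells for Edn3 and Ednra. Edn2, the endothelin that is no member of the set, was found in epicardium-like cells at 5.52 CPM, from 331 UMIs, and at 0.105 in surface ectoderm-like cells, the next class; it was at 0 in crest mesenchyme-like cells.

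The larger of 2 cardiomyocyte clusters led by Vsnl1 and Shox2 (551 cells) differed in Ednrb and Edn1 from the Myl2-led, Myh6-led and Abra-led clusters. Its Ece1 was near that of the Abra-led cluster, at 27.1 against 30.2 in cardiomyocyte-like cells. Its cardiomyocyte-like cells had 38.8 CPM of Ednrb (35.5 to 42.3), against 3.55 in the Myl2-led, 4.13 in the Myh6-led and 3.49 in the Abra-led ones, and over the whole cluster all 6 libraries lay between 28.6 and 58.2. Edn1 was at 17.4 there, against 1.20, 2.42 and 6.31. The smaller one, 152 cells at a median of 13034 UMIs, was at 9.73 (6.098 to 14.7) for Ednrb and 6.63 for Edn1. The summed endothelium markers of the larger cluster were at 51.1 CPM, with 2 of 8 at 10 or more, against 33.8, 54.9 and 62.7 in the others. Its migratory crest markers summed to 19.4, with 1 of 7 at 10 or more, against 10.2, 6.63 and 6.77, and its crest mesenchyme markers to 421 against 172, 194 and 318. The part of these cell types in its levels was not tested. In second heart field-like cells, the Col19a1-led cluster was at 22.9 for Ednrb (20.6 to 25.4), against 1.87 in the Cxcl13-led cluster. Over the whole clusters the endothelium markers summed to 58.4 (libraries 39.7 to 82.2) and 19.9 (15.7 to 23.04), and their part in the difference was not tested.

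Myeloid-like cells, at 85 the smallest class, had 134 Ednrb UMIs and 1 Ednra UMI, and 48.2% of them had Ednrb alone. Of the 8 endothelium markers, 2 reached 10 CPM in them, with a summed level of 167, and the part of endothelial molecules in this was not tested.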
